A study of Homo sapiens with 12 samples.

Results

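Keratins are the intermediate filament proteins of epithelial cells, and 8 of their genes are described here: KRT7, KRT8, KRT18, KRT19, KRT23, KRT80, KRT81 and KRT86. They were taken as the rows of the deposited count table whose Ensembl identifier, without its version, belongs to these symbols. All 8 were found among 57783 rows, and all 8 were among the 16327 genes that had enough counts to be tested. The libraries come from MDA-MB-468, a human breast cancer cell line of the triple-negative type, without the receptors for estrogen and progesterone and without HER2 amplification. The cells were kept for 10 days in 0.5 µM EPZ5676 (pinometostat), an inhibitor of DOT1L, the enzyme that methylates histone H3 in its globular core, or in the solvent DMSO. After that they were sorted into an ALDH1+ and an ALDH1- population, by the class of aldehyde dehydrogenases that marks cells with stem cell traits in breast tumours. Each combination of treatment and population makes 1 of 4 groups, named for example DMSO ALDH1+, with 3 replicates that the labels call biological. All groups are the same cell line in the same medium, with 1 dose and 1 time, so they represent 1 tumour's cells.

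Keratins assemble as obligate pairs of a basic to neutral type II protein with an acidic type I protein. KRT8 (type II) and KRT18 (type I) are the first pair made in the embryo and the basic pair of simple, single-layered epithelium; KRT7 (type II) and KRT19 (type I) are added in glands and ducts such as those of the breast. KRT23 is a type I keratin of simple epithelium. KRT80 is a type II keratin that lies near the cell margins and desmosomes, the junctions to which keratin filaments are tied. KRT81 and KRT86 are type II hair keratins of the hair cortex, and mutations in either gene cause monilethrix, a beading of the hair shaft. In bulk libraries such as these, fewer cells that make a keratin and less of its RNA per cell cannot be told apart.

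The type II genes KRT7, KRT8, KRT80, KRT81 and KRT86 and the type I gene KRT18 lie on chromosome 12, and KRT19 and KRT23 lie on chromosome 17. KRT81 and KRT86 are close copies, and a stretch of their sequence is shown because it bears on how far the counts of both genes can be separated. In the GENCODE 29 transcripts with the longest coding sequence, 1454 coding bases could be aligned and 93.6% of them were identical, with 93 differences and a longest identical run of 605 bases. The stretch of 150 coding bases with the fewest differences runs from coding base 61 to 210, counted from the A of the start codon, and is the same in both genes. It is written in the sense of the transcript, in lower case throughout since no base differs.
KRT81 and KRT86, coding bases 61 to 210: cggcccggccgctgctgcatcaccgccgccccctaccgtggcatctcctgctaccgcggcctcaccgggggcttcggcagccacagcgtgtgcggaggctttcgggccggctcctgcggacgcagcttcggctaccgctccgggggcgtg
A read from this stretch fits both genes equally well. Of all windows of 100 bases in the KRT86 transcript 25.4% also occur in some annotated transcript of KRT81. Of those in the KRT81 transcript 29.4% also occur in some annotated transcript of KRT86. How the counting treated reads that fit more than 1 gene is not given in the sources used here, so the counts of KRT81 and KRT86 are uncertain to that extent. The annotated genes also overlap: KRT81 with KRT86 and KRT8 with KRT18 on opposite strands, and KRT7 with KRT86 on the same strand. The kit marks the strand of each transcript, but whether the counting used it is not given. Of the 28 pairs among the 8 genes, 26 shared no window of 50 bases over all their annotated transcripts. Besides KRT81 and KRT86 the exception was KRT8 with KRT80, which shared 16 such windows. KRT7 and KRT8 were identical at 72.1% of aligned coding bases and KRT18 and KRT19 at 61.5%.

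Total counts per library ranged from 24348594 to 80195050, and no pair of replicates agreed within sampling noise. Levels are given as CPM, the counts of a gene out of 1000000 in the library, whose size was scaled by TMM (trimmed mean of M values). The libraries numbered 3 stood somewhat apart from those numbered 1 and 2 in several of these genes, so some results are also given without them. As a check of the sort labels, ALDH1A1, an enzyme of the ALDH1 class, was at 33.1 ± 5.2 CPM in DMSO ALDH1+ and 25.3 ± 2.9 CPM in DMSO ALDH1- (SD, n = 3). With EPZ5676 it was at 11.8 ± 2.1 and 11.95 ± 1.8 CPM. ALDH1A3, the more abundant enzyme of the class, was at 1642 ± 202 against 1371 ± 9.3 CPM in DMSO and at 1953 ± 123 against 1449 ± 54 CPM in EPZ5676. Neither gene was called between the populations by the test used here (adjusted p from 0.157 to 0.984). With the replicate number as a block ALDH1A1 was called in DMSO (adjusted p = 0.0254) and ALDH1A3 in both treatments (0.0417 and 0.0158).

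The simple epithelial keratins were the abundant ones. Levels of different genes are compared per length, as CPM per kilobase of the transcript named above, averaged over the 12 libraries. KRT8 was highest at 1769 CPM per kilobase (1525 to 2141 over the libraries), followed by KRT19 at 1674 (1396 to 2111), and these ranges overlap. KRT18 came next at 990 (857 to 1151) and KRT7 at 912 (790 to 1012), and these ranges overlap too. KRT81, a hair keratin, stood at 401 CPM per kilobase (280 to 600), below every library's value for the 4 simple keratins and above all values of KRT23, at 98.3 (73.9 to 113). KRT80 stood at 48.8 CPM per kilobase (33.7 to 64.6) and KRT86 at 6.70 (4.65 to 9.81). From KRT7 downwards no range overlaps with the next. KRT83, the third close hair keratin of this kind, had 1 to 9 counts per library and was not tested. Together the 8 genes took 0.896 to 1.07% of all counts in a library. KRT8, KRT18 and KRT19 took 0.766 ± 0.052% in DMSO ALDH1+, 0.685 ± 0.038% in DMSO ALDH1-, 0.653 ± 0.021% in EPZ5676 ALDH1+ and 0.634 ± 0.047% in EPZ5676 ALDH1- (SD, n = 3).

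**Figure D1:**
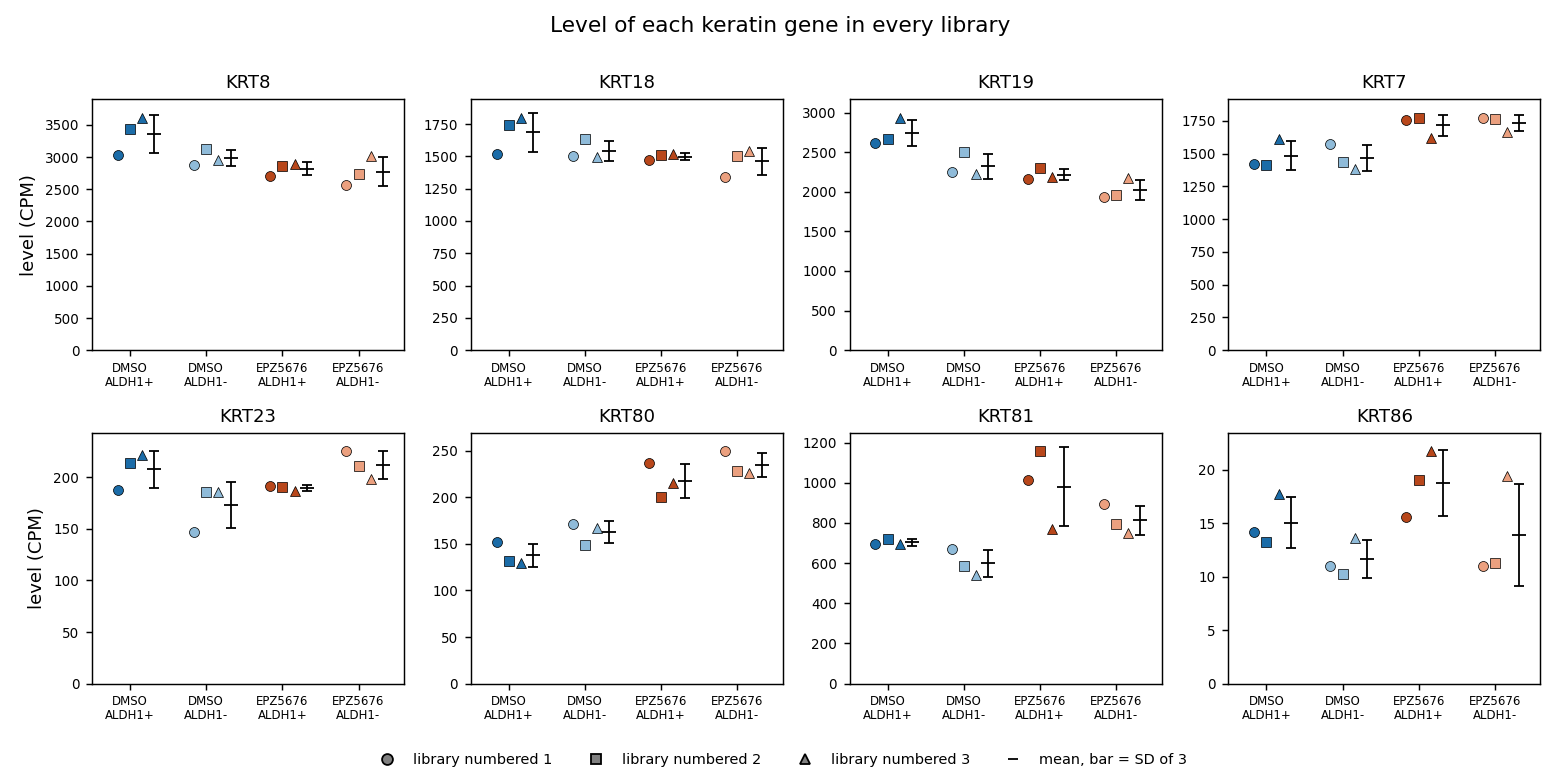
Level of each of the 8 keratin genes in every library, in CPM on a linear axis from 0, in a panel per gene; markers give the replicate number and colours the group, and the bar is the mean with the SD of 3 libraries. KRT80 and KRT81 lie higher in all 6 EPZ5676 libraries than in the DMSO libraries of the same population, while KRT19 lies lower.

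The first comparison asks which keratins differ after DOT1L inhibition in ALDH1+ cells. KRT80, KRT81 and KRT7 rose, KRT8 and KRT19 fell, and KRT18, KRT23 and KRT86 were not called. A gene was called below a Benjamini-Hochberg adjusted p of 0.05 in edgeR's quasi-likelihood test over all genes. Over all genes tested 17.8% were called higher and 13.7% lower, so 3 and 2 of 8 stand beside a treatment that moved many genes. The median log2 fold change of the 8 genes was 0.04, against -0.01 over all genes. In 6 of 8 genes the EPZ5676 and DMSO libraries did not overlap, as in 41.4% of all genes. With the replicate number as a block the same test called 4 higher and 3 lower, where 22.2% of all genes were called higher and 19.6% lower.

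KRT80, the keratin near desmosomes, changed most among the 8. Its level was 152, 131 and 130 CPM in DMSO ALDH1+ libraries 1, 2 and 3, and 237, 200 and 216 CPM in EPZ5676 ALDH1+. Every treated library lay above every control. The log2 fold change was 0.66 (SE 0.08, adjusted p = 3.49e-05), which is 1.58-fold. By replicate number the difference was 0.64, 0.61 and 0.73 on the log2 scale.

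Among the hair keratins, KRT81 rose by 0.48 on the log2 scale (SE 0.12, adjusted p = 0.00699). The control libraries were close together, at 694, 721 and 694 CPM, and the treated ones wide apart, at 1016, 1157 and 771 CPM. The groups did not overlap, but library 3 lay nearest to the controls, and by number the differences were 0.55, 0.68 and 0.15. Without the 4 libraries numbered 3 the log2 fold change was 0.61 (adjusted p = 0.000261). KRT86 was at 14.2, 13.2 and 17.7 CPM in DMSO and 15.6, 19.1 and 21.7 CPM in EPZ5676, with overlapping groups. Its log2 fold change was 0.31 (SE 0.20, adjusted p = 0.243; interval -0.10 to 0.73). With the block KRT86 was called higher, at 0.34 (adjusted p = 0.0169), and without the libraries numbered 3 likewise, at 0.34 (adjusted p = 0.0465).

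KRT7, the ductal type II keratin, was at 1425, 1415 and 1613 CPM in DMSO ALDH1+ and 1756, 1769 and 1623 CPM in EPZ5676 ALDH1+. The groups did not overlap, by a margin that rests on libraries 3, where the difference by number was only 0.01. The log2 fold change was 0.21 (SE 0.07, adjusted p = 0.0399). Without the 4 libraries numbered 3 it was 0.31 (adjusted p = 0.00358). This call was close to the threshold. It was lost without DMSO ALDH1+ library 1 (0.18, adjusted p = 0.119) or 2 (0.17, adjusted p = 0.137), and without EPZ5676 ALDH1+ library 1 (0.19, adjusted p = 0.119) or 2 (0.18, adjusted p = 0.117). Leaving out library 2 of DMSO ALDH1- or of EPZ5676 ALDH1-, neither of them in the groups compared, gave 0.21 both times (adjusted p = 0.0569 and 0.0502). In a fit of only the groups compared it was 0.22 (adjusted p = 0.0815).

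Of the other simple keratins KRT19 and KRT8 fell in ALDH1+ cells. KRT19, the short type I keratin, was at 2621, 2672 and 2934 CPM in DMSO and 2163, 2301 and 2189 CPM in EPZ5676. It fell by 0.31 on the log2 scale (SE 0.07, adjusted p = 0.00495), with no overlap between the groups. KRT8 went from 3026, 3437 and 3611 CPM to 2704, 2860 and 2895 CPM. It fell by 0.25 (SE 0.08, adjusted p = 0.0238), again without overlap. That call was lost without DMSO ALDH1+ library 2 (-0.24, adjusted p = 0.0667) or 3 (-0.20, adjusted p = 0.0933), without EPZ5676 ALDH1+ library 1 (-0.22, adjusted p = 0.0899), and without all libraries numbered 3 (-0.22, adjusted p = 0.0527). It was also lost when only the groups compared were fitted (-0.24, adjusted p = 0.0669). KRT18, the partner of KRT8, was at 1517, 1740 and 1798 CPM against 1469, 1509 and 1516 CPM. Every treated library lay just below every control. The log2 fold change was -0.17 (SE 0.08, adjusted p = 0.104), which was called lower with the block (adjusted p = 0.0380) and without DMSO ALDH1+ library 1 (-0.24, adjusted p = 0.0260). KRT23 was at 187.5, 213 and 222 CPM in DMSO and at 192, 191 and 187 CPM in EPZ5676. Its groups overlapped, and its log2 fold change was -0.13 (SE 0.09, adjusted p = 0.300; interval -0.32 to 0.06).

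The same question was asked of ALDH1- cells. KRT80, KRT81, KRT23 and KRT7 rose there, and no gene of the 8 was called lower. Of all genes tested 13.6% were called higher and 9.04% lower. The median log2 fold change of the 8 was 0.25, against -0.02 over all genes, and 5 of 8 had groups that did not overlap, as in 39.1% of all genes. With the block 4 were called higher and 1 lower, beside 17.4% and 14.8% of all genes.

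KRT80 was at 171, 149 and 167 CPM in DMSO ALDH1- and 249, 229 and 226 CPM in EPZ5676 ALDH1-, a rise by 0.53 on the log2 scale (SE 0.08, adjusted p = 0.000323) or 1.45-fold. No library of either group reached the other group. KRT81 was at 672, 584 and 541 CPM against 894, 792 and 752 CPM, also without overlap, a rise by 0.44 (SE 0.12, adjusted p = 0.0159). Here the differences by number were alike, at 0.41, 0.44 and 0.48. The call was lost without DMSO ALDH1- library 2 (0.43, adjusted p = 0.0542) or 3 (0.38, adjusted p = 0.0733) and without EPZ5676 ALDH1- library 1 (0.37, adjusted p = 0.0709). KRT86 was at 11.03, 10.3 and 13.7 CPM in DMSO and 10.97, 11.3 and 19.4 CPM in EPZ5676. Only library 3 stood out, and the log2 fold change was 0.25 (SE 0.20, adjusted p = 0.423). Without the libraries numbered 3 it was 0.07.

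KRT7 was at 1577, 1433 and 1386 CPM in DMSO ALDH1- and 1774, 1763 and 1662 CPM in EPZ5676 ALDH1-. All treated libraries were higher, by 0.24 on the log2 scale (SE 0.07, adjusted p = 0.0261). The call was lost without DMSO ALDH1- library 2 (0.23, adjusted p = 0.0863) or 3 (0.21, adjusted p = 0.109) and without EPZ5676 ALDH1- library 1 (0.23, adjusted p = 0.0760) or 2 (0.23, adjusted p = 0.0763). KRT23 was at 147, 185 and 186 CPM in DMSO and 225, 211 and 198 CPM in EPZ5676. The groups did not overlap, and the log2 fold change was 0.29 (SE 0.09, adjusted p = 0.0309). Number 1 alone differed by 0.62, against 0.19 and 0.09 for numbers 2 and 3. The KRT23 call was lost without DMSO ALDH1- library 1 (0.19, adjusted p = 0.120), without EPZ5676 ALDH1- library 1 (0.25, adjusted p = 0.119) and without EPZ5676 ALDH1- library 2 (0.30, adjusted p = 0.0786).

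KRT19 was at 2244, 2505 and 2222 CPM in DMSO ALDH1- and 1940, 1957 and 2169 CPM in EPZ5676 ALDH1-. The groups did not overlap, by a small margin at library 3, and the log2 fold change was -0.20 (SE 0.07, adjusted p = 0.0608). It was called lower with the block (adjusted p = 0.0278), and without the libraries numbered 3, where it was -0.28 (adjusted p = 0.0129). KRT8 was at 2876, 3128 and 2959 CPM against 2572, 2731 and 3014 CPM. KRT18 was at 1500, 1631 and 1493 CPM against 1339, 1504 and 1539 CPM. For both genes libraries 1 and 2 were lower with EPZ5676 and library 3 was not. Their log2 fold changes were -0.11 (SE 0.08; interval -0.28 to 0.06) and -0.08 (SE 0.08; interval -0.24 to 0.08), with adjusted p of 0.365 and 0.514. Without the libraries numbered 3 they were -0.17 (adjusted p = 0.144) and -0.13 (adjusted p = 0.308).

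Whether the treatment difference itself depended on the population was tested as an interaction, the log2 fold change in ALDH1+ minus that in ALDH1-. None of the 8 genes was called, and of all genes none was (0%) in the edgeR test. Without adjustment 1 of 8 and 597 of all genes had a p below 0.05. DESeq2 (476 genes below 0.05), limma-voom (676) and the fit with the block (1463) called none either. The member with the unadjusted p below 0.05 was KRT23, whose treatment difference was -0.13 in ALDH1+ and 0.29 in ALDH1-, an interaction of -0.42 (SE 0.13, adjusted p = 0.979). For KRT80 it was 0.13 (interval -0.13 to 0.38) and for KRT81 0.04 (interval -0.32 to 0.40) on the log2 scale. KRT8 and KRT19, called in ALDH1+ and not in ALDH1-, had interactions of -0.14 (interval -0.38 to 0.09) and -0.11 (interval -0.32 to 0.11) and were not shown to differ between the populations. Over the alternative fits these interactions ran from -0.21 to -0.05 for KRT8 and from -0.17 to 0.03 for KRT19.

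**Figure D2:**
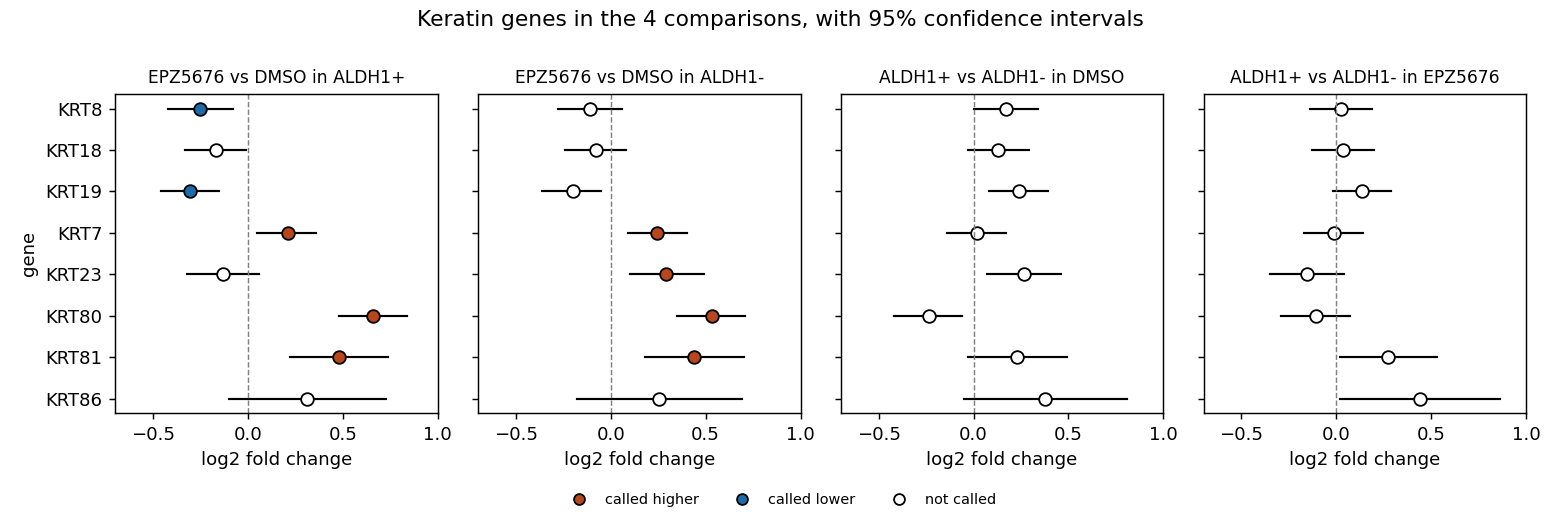
Log2 fold changes of the 8 keratin genes in the 4 comparisons, a panel each, with 95% confidence intervals from edgeR's quasi-likelihood fit and filled points for genes called at an adjusted p below 0.05. Calls occur only in the panels of EPZ5676 against DMSO, 5 in ALDH1+ and 4 in ALDH1-, and the intervals of KRT86 are the widest of the 8 genes in each panel.

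The sorted populations were compared next. In DMSO none of the 8 keratins was called between ALDH1+ and ALDH1-, and neither was any other gene (0%), while 4 of 8 and 2904 of all genes had an unadjusted p below 0.05. DESeq2 called 1 of 8 and 298 of all genes, limma-voom 0, and the fit with the block 2 of 8 and 1384 of all (8.48%). The 4 keratins were KRT19, KRT23, KRT80 and KRT8. KRT19 was at 2742 ± 168 CPM in ALDH1+ and 2324 ± 158 CPM in ALDH1- (SD, n = 3), without overlap. It was higher at each of the 3 replicate numbers, by 0.22, 0.09 and 0.40 on the log2 scale. Its log2 fold change was 0.24 (SE 0.07, adjusted p = 0.171; with the block 0.24, adjusted p = 0.0368). KRT80 went the other way, at 138 ± 13 against 162 ± 12 CPM, with overlap. It was lower at all 3 numbers, with differences of -0.17, -0.18 and -0.36. Its log2 fold change was -0.24 (SE 0.08, adjusted p = 0.190; with the block -0.24, adjusted p = 0.0229). KRT23 was at 207.5 ± 18 against 173 ± 22 CPM, without overlap (log2 fold change 0.27, SE 0.09, adjusted p = 0.182), and KRT8 at 3358 ± 300 against 2988 ± 128 CPM, with overlap (0.17, SE 0.08, adjusted p = 0.278). KRT81 was the other of 3 genes whose groups did not overlap (23.1% of all genes), at 703 ± 15 against 599 ± 67 CPM (0.23, SE 0.12, adjusted p = 0.332). KRT86 had the largest difference of the 8, at 15.05 ± 2.4 against 11.7 ± 1.8 CPM, with overlap. Its log2 fold change was 0.38 (SE 0.20, adjusted p = 0.340; interval -0.05 to 0.81; with the block 0.36, adjusted p = 0.0527). By replicate number it was 0.36, 0.36 and 0.38. KRT18 and KRT7 had log2 fold changes of 0.13 and 0.02. The median of the 8 was 0.20, against -0.01 over all genes. For KRT8, KRT19, KRT80 and KRT81 the difference was largest at number 3. Without the libraries numbered 3 none of the 8 was called in DMSO.

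In EPZ5676 the 8 keratins were likewise not called between the populations, where 3 of all genes, 0.0184%, were called. Unadjusted p was below 0.05 in 2 of 8 genes and in 1032 of all. By other fits 31 (DESeq2), 3 (limma-voom) and 75 (with the block) of all genes were called, and none of the 8. The 2 were the hair keratins. KRT81 was at 981 ± 195 CPM in ALDH1+ and 813 ± 73 CPM in ALDH1-, with overlap, or 0.27 on the log2 scale (SE 0.12, adjusted p = 0.784). KRT86 was at 18.8 ± 3.1 against 13.9 ± 4.8 CPM, with overlap, or 0.44 on the log2 scale (SE 0.20, adjusted p = 0.784). Without the libraries numbered 3 KRT86 was called, at 0.65 (adjusted p = 0.0479). Both were higher in ALDH1+ at all 3 replicate numbers, in EPZ5676 and in DMSO. KRT23 was the 1 of 8 genes whose groups did not overlap (9.57% of all genes), at 190 ± 2.7 CPM in ALDH1+ and 211 ± 13 CPM in ALDH1- (log2 fold change -0.16, SE 0.09, adjusted p = 0.825). KRT8, KRT18 and KRT7 lay within 0.04 of 0 on the log2 scale, with intervals from -0.14 to 0.19, -0.13 to 0.20 and -0.17 to 0.14. KRT19 was at 0.13 and KRT80 at -0.11, and the median of the 8 was 0.03.

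Ratios within a library do not depend on its scaling, and they show which keratins shifted against each other. They are given as a description. KRT8 counts were 182 to 201% of those of its partner KRT18 over the 12 libraries, with group means of 199, 194, 188 and 190% for DMSO ALDH1+, DMSO ALDH1-, EPZ5676 ALDH1+ and lastly EPZ5676 ALDH1-. The ratio of KRT7 counts to those of KRT8, the other abundant type II keratin, was 47.1, 41.2 and 44.7% in DMSO ALDH1+ and 64.9, 61.8 and 56.1% in EPZ5676 ALDH1+. In ALDH1- it was 54.8, 45.8 and 46.8% with DMSO and 69.0, 64.6 and 55.2% with EPZ5676. All 6 EPZ5676 libraries thus lay above all 6 DMSO libraries, the closest being 55.2 and 54.8%. The ratio of KRT81 counts to KRT8 counts was 18.3 to 23.4% in the 6 DMSO libraries and 25.0 to 40.4% in the 6 EPZ5676 libraries. In both ratios the EPZ5676 library numbered 3 was the lowest of its group. The count of KRT86 relative to KRT81 ran the other way with the replicate number: it was 2.53 to 2.82% in the 4 libraries numbered 3 and 1.23 to 2.04% in the other 8. Its group means were 2.14, 1.98, 2.00 and 1.75% in the order given above.

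**Figure D3:**
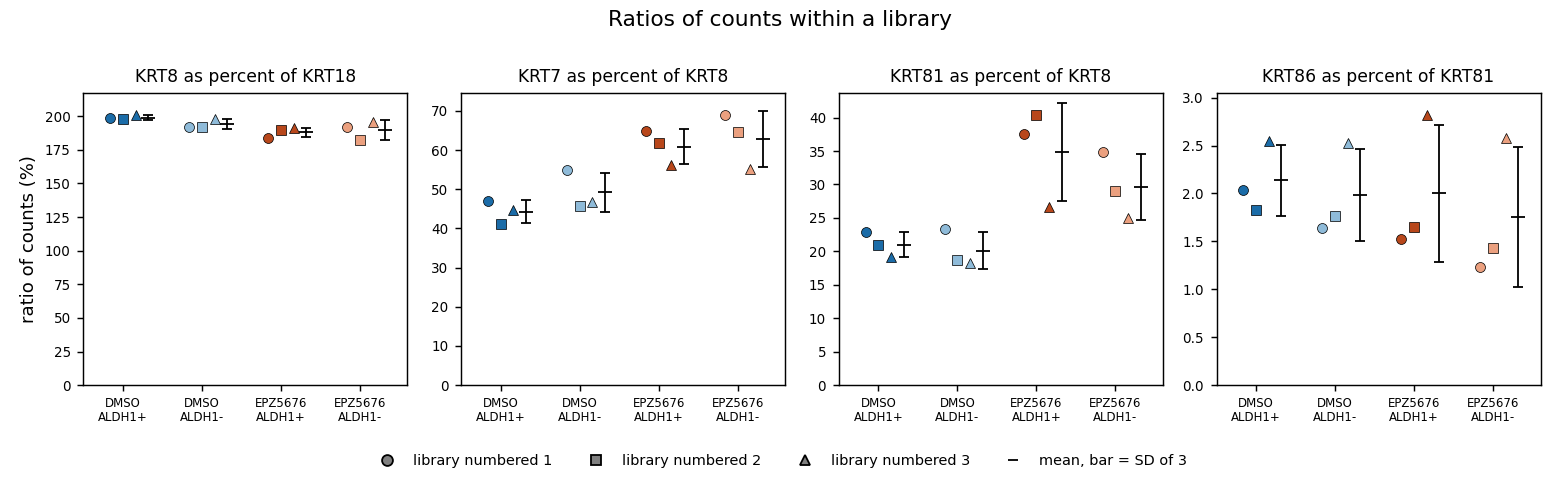
Counts of 1 keratin as a percentage of those of another in the same library, in 4 panels on linear axes from 0, with the mean and SD of 3 libraries beside the points. KRT7 and KRT81 relative to KRT8 are higher in the EPZ5676 libraries than in the DMSO libraries, KRT8 relative to KRT18 stays between 182 and 201%, and KRT86 relative to KRT81 is highest in the library numbered 3 of each group.

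Pseudogenes share sequence with several of these genes. KRT8 has 51 pseudogene rows in the table, which together held 0.574 to 0.897% of the counts of KRT8, and KRT18 has 67, with 0.111 to 0.185%. The 5 rows of KRT19 held at most 0.00548%, and KRT7 has none. Of 8 such pseudogene and antisense rows that could be tested, including KRT7-AS, none was called in either comparison of EPZ5676 with DMSO. With the block KRT8P12 was called higher in ALDH1- (log2 fold change 0.23 without the block, adjusted p = 0.141, and adjusted p = 0.0440 with it).

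Larger log2 fold changes were found among other keratins. Of 22 other keratins of stratified and stressed epithelium, 16 could be tested. For this and later lists, the shares over all genes were 17.8% higher and 13.7% lower in ALDH1+, 13.6% and 9.04% in ALDH1-. With the block they were 22.2% and 19.6% in ALDH1+, and 17.4% and 14.8% in ALDH1-. In ALDH1+ cells 8 were called higher and 3 lower (11 and 3 with the block), with a median log2 fold change of 0.48, and in ALDH1- cells 8 higher and 1 lower (9 and 2 with the block), with a median of 0.56. Called higher in ALDH1+ with the block, but not in the main fit, were KRT6B (0.46, adjusted p = 0.00792), KRT9 (0.49, adjusted p = 0.0121) and KRT14 (0.27, adjusted p = 0.0217). In ALDH1- this held for KRT9 (0.64, adjusted p = 0.00717), which DESeq2 also called (adjusted p = 0.0402). Some other alternatives called these genes too. Without the libraries numbered 3 KRT6B and KRT9 were called higher in ALDH1+ (0.69 and 0.71, adjusted p = 0.00201 and 0.0146). The genes called lower were KRT10, KRT15 and KRT79 in ALDH1+ and KRT10 in ALDH1- (with the block KRT15 too). Each of these calls was lost when some single library was left out: in ALDH1+ DMSO library 2 or 3 or EPZ5676 library 1 or 2 (adjusted p up to 0.200), and in ALDH1- DMSO library 2 or 3 or EPZ5676 library 1 (up to 0.0701). Without the libraries numbered 3 KRT10 was not called in either population (adjusted p = 0.0973 and 0.0636) and KRT79 not in ALDH1+ (adjusted p = 0.0518). In ALDH1+ the KRT15 call was also lost with total counts (adjusted p = 0.0534), and the KRT79 call with DESeq2 (adjusted p = 0.0634). Both were lost when only the groups compared were fitted (adjusted p = 0.0574 and 0.0814). KRT13, a keratin of internal stratified epithelium, rose from 2.2 ± 0.43 to 18.8 ± 2.7 CPM in ALDH1+, by 3.08 on the log2 scale (SE 0.16, adjusted p = 1.04e-08), and by 2.95 (SE 0.18, adjusted p = 1.22e-07) in ALDH1-. KRT3, a keratin of the cornea, rose by 1.98 and 1.73 from under 1 CPM. KRT1, a keratin of the differentiating epidermis, had 2 to 3 counts in the DMSO ALDH1+ libraries and 17 to 75 in the EPZ5676 ALDH1+ libraries, and in ALDH1- it rose by 2.25. Chosen after their values were seen, KRT6A and KRT17 are given as abundant genes among those called higher. These keratins of stressed and wounded epithelium rose by 2.0 and 1.2 in ALDH1+ and by 1.78 and 1.16 in ALDH1-. Other abundant genes of this list were not called in ALDH1+. KRT5, at 2444 ± 198 CPM in DMSO ALDH1+, was at 0.06 on the log2 scale (adjusted p = 0.530). KRT16, at 274.5 ± 22 CPM there, was at 0.13 (adjusted p = 0.530). KRT6A shares sequence with KRT6B and KRT6C, so its count is uncertain. KRT13 was also 1 of the 3 genes called between the populations in EPZ5676, at 1.11 higher in ALDH1+ (adjusted p = 0.00557). That call was lost without EPZ5676 ALDH1+ library 2 (1.01, adjusted p = 0.0680) or EPZ5676 ALDH1- library 2 (1.13, adjusted p = 0.0612). Of 24 other hair and root sheath keratins only 4 could be tested. KRT34, a type I hair keratin, was the 1 of them called, higher by 2.75 in ALDH1+ and 2.38 in ALDH1- (adjusted p = 0.000237 and 0.00120). Summed, the other 47 keratins held 0.367 ± 0.037% of all counts in DMSO ALDH1+ and 0.508 ± 0.058% in EPZ5676 ALDH1+, and 0.312 ± 0.017% against 0.397 ± 0.027% in ALDH1- (SD, n = 3, not tested as a sum).

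**Figure D4:**
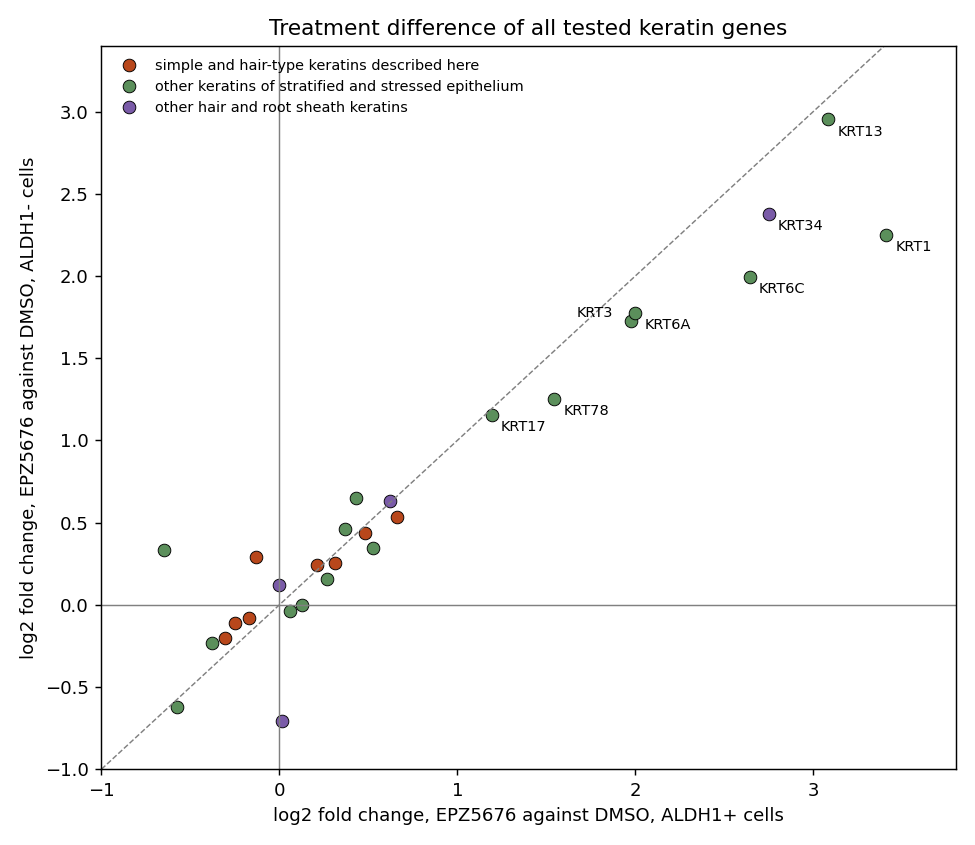
Log2 fold change of EPZ5676 against DMSO in ALDH1+ (horizontal) and ALDH1- cells (vertical) for all 28 keratin genes tested, with a dashed line of equal change; genes beyond 1 in either population are labelled, as chosen by these values. The 8 genes described here lie between -0.31 and 0.66, while KRT13, KRT34, KRT1, KRT6C, KRT6A, KRT3, KRT78 and KRT17 lie above 1 in both.

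Keratin filaments are tied to junctions and to other filaments by linker proteins. Of 10 linker genes tested 4 were called higher and none lower in ALDH1+ cells (median log2 fold change 0.10), and 2 higher and none lower in ALDH1- cells (median -0.03; with the block 3 higher and 2 lower). Over all genes 17.8% were called higher and 13.7% lower in ALDH1+, and 13.6% and 9.04% in ALDH1-. DST, which anchors filaments at hemidesmosomes and to the cytoskeleton, rose by 1.33 (SE 0.12) in ALDH1+ and by 0.97 (SE 0.12) in ALDH1-. Plectin (PLEC), a linker of all 3 filament systems, rose by 0.67 in ALDH1+ (adjusted p = 0.00160) and was at 0.35 in ALDH1- (adjusted p = 0.0719), called there with the block. The desmosome plaque gene PKP2 rose by 0.30 and 0.34, and PKP1 was the fourth gene called in ALDH1+, a call lost without DMSO ALDH1+ library 3 (0.82, adjusted p = 0.129) or EPZ5676 ALDH1+ library 2 (1.11, adjusted p = 0.0739), and without all libraries numbered 3 (0.91, adjusted p = 0.0991). With the block DSP and JUP were the 2 called lower in ALDH1-. Of 7 other intermediate filament genes tested 4 were called higher and 2 lower in each population. Those with the smallest p were INA, a neuronal filament gene (1.58 in ALDH1+ and 1.36 in ALDH1-), VIM, the vimentin of mesenchymal cells (1.44 and 1.41), and NES, the nestin of progenitor cells (1.32 and 1.05). The nuclear lamin gene LMNA was the other one higher, and LMNB1 and LMNB2 were those lower. In ALDH1- each of these 3 calls was lost without DMSO library 2 or 3 or EPZ5676 library 1 or 2 (adjusted p up to 0.137), and LMNA also without any of 5 other libraries or without a filter. The LMNA call in ALDH1- was lost without all libraries numbered 3 as well (adjusted p = 0.127). In ALDH1+ only LMNB2 was lost, without DMSO library 2 or EPZ5676 library 1 or 2 (up to 0.0985). It was also lost there when only the groups compared were fitted (adjusted p = 0.0524).

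Genes of transcription factors that act on epithelial genes went both ways. Of 21 tested, 7 were called higher and 7 lower in ALDH1+ (8 and 11 with the block; median log2 fold change -0.19), and 6 higher and 6 lower in ALDH1- (7 and 10 with the block; median -0.11). The shares over all genes were 17.8% higher and 13.7% lower in ALDH1+, and 13.6% and 9.04% in ALDH1-. FOXA1, a factor of the luminal breast programme, fell by 0.98 in ALDH1+ and by 0.89 in ALDH1-. ETS2 rose by 0.58 and 0.45, the AP-1 gene FOSL2 by 0.53 and 0.39, and TFAP2A fell by 0.38 and 0.50. The other AP-1 genes among the 21 went both ways in ALDH1+, with calls in each direction. Of the factors of hair keratin genes 2 of 5 could be tested, and 1 was called lower in each population (in ALDH1+ both with the block). DLX3, a homeobox gene of the hair follicle, was called lower by 0.79 in ALDH1+ and by 0.83 in ALDH1- (adjusted p = 0.0174 and 0.0210). It was no longer called without DMSO ALDH1+ library 3 or EPZ5676 ALDH1+ library 1 or 2 in the former (adjusted p up to 0.0844), and without DMSO ALDH1- library 2 or 3 or EPZ5676 ALDH1- library 1 or 2 in the latter (up to 0.102).

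Markers of epithelium and of other cell types were read in the same libraries. Of 7 epithelial markers none was called higher; 4 were called lower in ALDH1+ and 3 in ALDH1-. Over all genes 17.8% were called higher and 13.7% lower in ALDH1+, and 13.6% and 9.04% in ALDH1-. With the block CLDN4, another tight junction gene, was also called lower in ALDH1+ (-0.21, adjusted p = 0.0374; -0.20 and adjusted p = 0.146 without the block). The mucin gene MUC1 fell by 0.92 and 0.65, the tight junction gene CLDN3 by 0.71 and 0.63, and CDH1, the E-cadherin of epithelial junctions, by 0.55 and 0.67. EPCAM was the fourth in ALDH1+, by 0.28 (adjusted p = 0.0150), a call lost without DMSO ALDH1+ library 3 (-0.20, adjusted p = 0.0722) or EPZ5676 ALDH1+ library 1 (-0.26, adjusted p = 0.0553); in ALDH1- it was at -0.14 (adjusted p = 0.265). The summed level of all 7 was 1281 to 1440 CPM in DMSO ALDH1+, 1173 to 1250 in DMSO ALDH1-, 1091 to 1105 in EPZ5676 ALDH1+ and 1016 to 1123 in EPZ5676 ALDH1-. EPCAM, a surface protein of epithelium, was at 520 to 781 CPM over the libraries. Of 4 cell line markers tested 1 was called higher and 1 lower in ALDH1+, and none higher and 1 lower in ALDH1-. EGFR, which this line carries at high level, was at 4598 to 11460 CPM over the libraries. EGFR was the gene called higher in ALDH1+, by 0.63 (adjusted p = 0.00654). In ALDH1- it was at 0.33 (adjusted p = 0.159), and was called higher with the block (0.31, adjusted p = 0.00939). The progesterone receptor gene PGR had 0 to 1 counts, whereas the estrogen receptor gene ESR1 was detected in all 12 libraries, at 6.83 to 10.85 CPM (192 to 545 counts). ESR1 was not called in either population (adjusted p = 0.284 and 0.118). The 5 leukocyte markers summed to 7.05 to 8.51 CPM in DMSO ALDH1+, 8.75 to 11.3 in DMSO ALDH1-, 9.24 to 12.3 in EPZ5676 ALDH1+ and 11.3 to 16.7 in EPZ5676 ALDH1-. That sum is mostly CSF1R, at 4.76 to 14.4 CPM, and CD14, at 0.82 to 3.61 CPM. Of 3 tested, CSF1R and PTPRC were called higher in both populations and CD14 lower in ALDH1+, while CD3E and CD68 had 0 to 1 counts. PTPRC was near the floor, with 2 to 36 counts per library (0.07 to 0.91 CPM). The PTPRC call in ALDH1+ was lost without DMSO ALDH1+ library 1 or 3, EPZ5676 ALDH1+ library 2 or 3, or all libraries numbered 3 (adjusted p up to 0.186). The CSF1R call in ALDH1- was lost without DMSO ALDH1- library 2 or 3 or EPZ5676 ALDH1- library 2 (up to 0.0909). The fibroblast markers summed to 8.89 to 14.2 and 10.6 to 13.5 CPM in DMSO ALDH1+ and ALDH1-, and to 21.3 to 25.1 and 18.6 to 20.6 CPM in EPZ5676. That sum is mostly COL1A1, called higher in both populations, while DCN and LUM had 0 counts in all 12 libraries. The endothelial markers in the table, VWF and CDH5, had at most 29 and 10 counts in a library. Their sum was 0.199 to 0.248 CPM in DMSO ALDH1+, 0.230 to 0.476 in DMSO ALDH1-, 0.414 to 0.573 in EPZ5676 ALDH1+ and 0.456 to 0.938 in EPZ5676 ALDH1-. VWF was called higher in ALDH1+ (2.25, SE 0.57, adjusted p = 0.00785), a call lost without DMSO ALDH1+ library 3 (2.06, adjusted p = 0.0580), and was at 1.07 in ALDH1- (adjusted p = 0.214). The part of these markers in the keratin differences was not tested.

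As a description of which genes ran most like each keratin, Pearson's r of log2 CPM was taken over the 12 libraries with each of 12115 genes that have a symbol and a mean log2 CPM of at least 1. The libraries share their group and their replicate number, so both enter these values. The nearest genes were ECI2 (0.992) and NARF (0.972) for KRT19, CLCN4 (0.986) and SH3GL1 (0.983) for KRT80, and PUS3 (0.974) and GTF2B (0.971) for KRT81. For KRT7 they were ILK (0.973) and SMIM29 (0.966), and for KRT8 they were C9orf40 (0.971) and C1QBP (0.959). KRT18 had C9orf40 (0.944) as well, and PSME2 (0.942). Among the least close were those of KRT23, SDCBP (0.915), and of KRT86, MB (0.917) and MESD (0.904).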

How the data were processed

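The authors deposited 1 table of raw read counts per gene, 57783 rows under versioned Ensembl identifiers and 1 column for each of the 12 libraries. Per the submitters' processing notes, Trim Galore, STAR and the build hg19 were used. Which program counted the reads, whether by strand and on which annotation is not given in the sources used here. Per the labels' protocols, a kit that keeps strand was used on total RNA. Identifiers were matched to symbols through GENCODE 29, and 51959 had one. Sequences and transcript lengths come from GENCODE 29, which is on another build, so no coordinates are given.

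From the counts, filterByExpr by group left 16327 genes. TMM factors were 0.975 to 1.021. All 12 libraries were fitted together in edgeR 4.0.16 (R 4.3.3) with a term per group and tested with the quasi-likelihood F test, two-sided, with Benjamini-Hochberg adjustment over all genes tested; calls are at 0.05. SE is the log2 fold change over the root of F, and intervals are at 95%. The common biological coefficient of variation was 9.6%. Since the counts per library are large, counting error is small for the 8 genes except KRT86, with 269 to 1522 counts.

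The 8 genes, the other lists and the naming rule were chosen with earlier results of these data known. The rule named the 8 genes throughout, ALDH1A1, ALDH1A3 and DOT1L as label checks, up to 3 called genes with the smallest p of each other list, cell type markers, and the 2 genes most like each keratin. Further list genes are named, after their values were seen, where few were called or where genes were abundant. Of the genes the rule names, 1 marker and 1 gene most like a keratin are not reported here. DOT1L is not described, since the compound acts on the enzyme.

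Replicate numbers recur in all groups. Over 12354 genes the deviations from group means of same-numbered libraries correlated at 0.17 to 0.65 in all 18 pairs, against -0.66 to 0.22 for other numbers, so the numbers pair the libraries. Block values stand beside a result where they change its call. P-values measure the spread between these replicates. The main fit leaves the pairing out, so that its spread includes the shifts shared by libraries of the same number.

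Alternatives were RLE scaling, total counts, no filter, at least 1 CPM in 3 libraries, DESeq2 1.42.0, limma-voom 3.58.1, the replicate block, near-identical rows summed, fits of only the groups compared, and each library left out in turn. Leaving out the 4 libraries numbered 3 was added after the data were seen.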

Additional observations from a re-analysis of the deposited data

How the results depend on the processing

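Of 867 values of the 8 genes under alternatives, 824 kept their side of the threshold, 22 lost a call, 21 gained one and none reversed a call; 22 that were not called changed sign. KRT80 in both populations, and KRT19 and KRT81 in ALDH1+, kept their calls in every alternative. The other calls of EPZ5676 against DMSO were lost in some: KRT7 in 7 alternatives and KRT8 in 5 in ALDH1+, and KRT7 in 4, KRT23 in 3 and KRT81 in 3 in ALDH1-. Of 4200 values of other named genes, 4037 kept their side, 74 lost a call, 89 gained one and none reversed. KRT5 and KRT16 were not among these genes. Calls lost in some alternatives were those of KRT10, DLX3 and LMNB2 in both populations, of KRT15, KRT79, PKP1, EPCAM, PTPRC, VWF and ALDH1A3 in ALDH1+, of KRT6C, LMNA, LMNB1 and CSF1R in ALDH1-, and of KRT13 between the populations in EPZ5676, each in 1 to 11 of them. KRT86 has no value with near-identical rows summed, and the interaction none when only the groups compared are fitted.

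In EPZ5676 against DMSO in ALDH1+, the number of the 8 genes lower went from 2 to 1 when only the groups compared were fitted and without the libraries numbered 3, and was 1 to 3 when single libraries were left out; the number higher was 2 to 3, and all genes lower 1503 to 2408. In ALDH1- the number lower went from 0 to 1 without a filter, with DESeq2, with limma-voom, with the replicate block and without the libraries numbered 3, and was 0 to 1 when single libraries were left out; the number higher was 1 to 4. All genes lower in ALDH1- went from 1476 to 2423 with the replicate block and to 891 to 1609 without single libraries.

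In ALDH1+ against ALDH1- in DMSO, 4 of the 8 and 948 of all genes were called without a filter, 1 and 298 with DESeq2, 2 and 1384 with the replicate block, and 0 to 1 of all genes without single libraries. In EPZ5676, 2 of the 8 and 235 of all genes were called without a filter, 31 of all with DESeq2, 75 with the replicate block, 5 when only the groups compared were fitted, 1 of the 8 and 61 of all without the libraries numbered 3, and 0 to 21 of all without single libraries. For the interaction 37 of all genes were called without a filter. The cause of these changes was not tested. Leaving out libraries also lowers the number fitted.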
